A study of Saccharomyces cerevisiae and Kluyveromyces marxianus with 18 samples.

Results

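Ribosome biogenesis factors are the nucleolar proteins that turn the ribosomal RNA precursor into the small and large ribosomal subunits. They were described here as a list of 39 genes, chosen by reference locus for their nucleolar and assembly roles. No measured value entered the rule, although the list was drawn up with earlier results of these data known. The list comprised the core proteins of the small nucleolar ribonucleoprotein particles (snoRNPs), components of the small subunit processome, DEAD-box RNA helicases, and assembly factors of the large subunit. All 39 loci were found in both yeasts, among 5330 genes of Kluyveromyces marxianus and 6171 genes of Saccharomyces cerevisiae. All 39 were matched 1 to 1 between the species, all passed the filter on low counts, and 0 overlapped another annotated gene.

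Transcription of ribosomal DNA by RNA polymerase I yields a long precursor. Box C/D snoRNPs guide methylation of its riboses and box H/ACA snoRNPs guide its pseudouridylation. The small subunit processome, built around the U3 snoRNP, folds and cleaves the part that becomes the small subunit, while helicases, GTPases and scaffold proteins assemble the large subunit. In S. cerevisiae these genes form a regulon that follows growth rate and falls under stress, and many of their promoters carry the PAC and RRPE elements. The repressors Dot6 and Tod6 bind PAC, and Stb3 binds RRPE.

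Poly(A)-selected messenger RNA was sequenced from wild-type K. marxianus CBS6556, a thermotolerant yeast, and wild-type S. cerevisiae CEN.PK113-7D, a laboratory strain. Cells were grown in glucose-fed chemostats with urea medium and pluronic antifoam at pH 6, at a dilution rate of 0.1 per h. The dilution rate, which sets the growth rate at steady state, was therefore the same in all groups. Whether each culture was at steady state could not be checked from the counts. There were 2 libraries in each of 9 groups. All anaerobic cultures had 20 g/L glucose. Unsupplemented ones, sampled in S. cerevisiae alone, received neither Tween 80, which is a source of oleate, nor ergosterol. T cultures received Tween 80 at 420 mg/L without ergosterol, and TE cultures the same Tween 80 together with ergosterol at 10 mg/L. Oxygen-limited (micro-aerobic) cultures had the medium of TE cultures. Aerobic cultures had 7.5 g/L glucose, no Tween 80, and ergosterol at 10 mg/L, so that they differed from TE and oxygen-limited cultures in glucose and Tween 80 as well as in oxygen. The sample titles open with a code, whose meaning the labels do not give. It was shared between T and TE cultures of K. marxianus and between unsupplemented and TE cultures of S. cerevisiae. In both of these comparisons the last digit of the title goes with the condition and cannot be told apart from it. In the other comparisons title code and condition cannot be told apart.

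Total counts per library were 6510449 to 10660870 in K. marxianus and 2849618 to 13112466 in S. cerevisiae. The lowest was the second unsupplemented library, where single genes of the list had 3 to 534 counts. It also stood apart in scaling, with a trimmed mean of M values (TMM) factor of 0.371 against 0.972 to 1.21 in the other S. cerevisiae libraries. Levels are given as CPM (counts scaled to library size) after TMM scaling, as shares of the messenger RNA pool. The amount of messenger RNA per cell was not measured. Differences are log2 fold changes from edgeR's quasi-likelihood test with Benjamini-Hochberg adjustment over all genes tested, and a gene was called at an adjusted p under 0.05. Values written as a number ± an error with an adjusted p are such log2 fold changes with their SE, with 2 libraries per group. The SE was worked back from the test statistic. Its spread is shared over all groups of the fit and moderated across genes, and is not that of the compared libraries alone. Comparisons that share a group share its libraries and are not independent. The spread is shared over a fit, so leaving out a library or a group changed the calls over all genes as well. Counts from alternative fits, where given without the share of all genes, describe the fit and are no result about the list. With 2 libraries per group an exact permutation test within a gene cannot reach 0.05, so none was run.

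The S. cerevisiae promoters of the list carried the 2 elements more often than promoters at large. Many promoters of this regulon are known to carry them, as said above, so the shares are a description and no test. The protein-coding genes used for comparison include those of the list. Stretches of 200 bases, from 270 to 71 bases before the start codon, were read from the RefSeq R64 genome of the reference strain S288C. The sequence of CEN.PK113-7D was not used here. The PAC core, searched as GATGAG on both strands, was present in 35 of 39 promoters of the list (89.7%), against 14.8% of 6007 protein-coding genes. The RRPE core, searched as AAAAATTT on both strands, was present in 33 (84.6%), against 12.5% of all. Both cores were present in 31 (79.5%), against 4.39% of all. Their matches overlap where an AAAAATTTTT run is read on either strand. In the 31 promoters with both, the nearest starts were 11 to 59 bases apart, with a median of 17. The RRPE core lay farther from the start codon in 28 of the 31. UTP4 and MPP10, of the small subunit processome, had neither core in this window.

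The stretches of 5 genes are shown because these genes gave large differences of unlike direction below, a choice made after the values were seen. Capitals mark the PAC core (GATGAG or CTCATC) and the RRPE core (AAAAATTT or AAATTTTT), and all are written 5′ to 3′ on the strand of the gene. They are the stretches upstream of NOP10 (chrVIII:241394-241593, plus strand), NHP2 (chrIV:87242-87441, plus strand), NIP7 (chrXVI:153225-153424, plus strand), NOG1 (chrXVI:370708-370907, plus strand) and NSR1 (chrVII:807727-807926, minus strand).
NOP10: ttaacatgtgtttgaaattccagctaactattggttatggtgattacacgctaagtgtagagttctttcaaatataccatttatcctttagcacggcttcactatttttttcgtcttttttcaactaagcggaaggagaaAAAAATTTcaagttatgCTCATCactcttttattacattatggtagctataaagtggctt
NHP2: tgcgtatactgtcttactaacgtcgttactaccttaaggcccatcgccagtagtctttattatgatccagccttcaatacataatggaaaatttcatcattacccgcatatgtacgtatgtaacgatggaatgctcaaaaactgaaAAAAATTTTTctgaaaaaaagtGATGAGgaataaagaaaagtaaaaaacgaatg
NIP7: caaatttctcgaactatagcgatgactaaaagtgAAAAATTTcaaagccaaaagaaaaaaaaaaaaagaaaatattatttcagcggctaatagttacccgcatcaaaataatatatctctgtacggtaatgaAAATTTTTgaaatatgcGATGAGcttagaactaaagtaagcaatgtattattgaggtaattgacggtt
NOG1: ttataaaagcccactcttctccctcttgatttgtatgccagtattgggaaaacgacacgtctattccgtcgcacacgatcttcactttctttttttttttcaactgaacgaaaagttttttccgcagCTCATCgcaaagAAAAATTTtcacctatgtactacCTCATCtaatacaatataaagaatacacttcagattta
NSR1: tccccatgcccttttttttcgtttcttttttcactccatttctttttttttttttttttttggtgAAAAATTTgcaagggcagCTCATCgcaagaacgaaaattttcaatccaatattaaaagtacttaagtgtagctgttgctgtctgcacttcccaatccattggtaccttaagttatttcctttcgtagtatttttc
NOP10, NHP2, NIP7 and NSR1 each held 1 PAC core, nearer to the start codon than the RRPE core. NOG1 held 2 PAC cores around 1 RRPE core. That these genes did not move alike in the comparisons below follows from how they were chosen. It says nothing about the other promoters of the list. A match is a description of letters and was not tested for binding.

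The H/ACA genes NOP10 and NHP2 had the highest levels per kilobase of gene when averaged over all libraries of a species. This order leans on gene length, since both are among the 5 shortest genes of the list. NOP10 is 165 bp long in K. marxianus and 177 bp in S. cerevisiae, and NHP2 450 and 522 bp. In CPM not divided by length, NOP58 was above NOP10 in TE and aerobic cultures of K. marxianus, as the values below give. NOP10, the smallest H/ACA core protein, averaged 1096 CPM per kb in K. marxianus and 2800 CPM per kb in S. cerevisiae. NHP2, the H/ACA protein related to ribosomal protein L7Ae, averaged 719.8 CPM per kb in K. marxianus and 432 CPM per kb in S. cerevisiae. The order depended on the condition: NOP10 of K. marxianus averaged 2865 CPM per kb in T, 894 in TE, 344 in oxygen-limited and 280.3 in aerobic cultures, and in the last 2 it was below NHP2 (428 and 453 CPM per kb). In S. cerevisiae NOP10 was first in each group. The lowest means were those of DBP10, a helicase of the large subunit, at 23.6 CPM per kb in K. marxianus, and of NOC3, a nuclear transport factor of large-subunit precursors, at 18.2 CPM per kb in S. cerevisiae. In S. cerevisiae the leading genes of the other roles were NOP1 (fibrillarin, the C/D methyltransferase, 285 CPM per kb), NIP7 (large subunit, 260.3 CPM per kb), NSR1 (the nucleolin homologue, 148 CPM per kb) and HAS1 (a helicase acting in both subunits, 80.1 CPM per kb). In the authors' CBS6556 annotation NOP10 (reference locus YHR072W-A) is at chromosome 8, 515310 to 515474 (plus strand), and NOP1 (YDL014W) at chromosome 1, 414006 to 415310 (plus). NIP7 (YPL211W) is at chromosome 4, 1222211 to 1222756 (minus), NSR1 (YGR159C) at chromosome 2, 833923 to 835302 (plus) and HAS1 (YMR290C) at chromosome 1, 1017956 to 1018846 (minus). The annotated HAS1 gene is 891 bp long in K. marxianus and 1518 bp in S. cerevisiae.

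The share of all counts that fell on the 39 genes moved in different ways in the 2 yeasts. In K. marxianus it was 0.767% and 0.594% in T cultures, 0.715% and 0.734% in TE cultures, 0.507% and 0.488% in oxygen-limited cultures, and 0.414% and 0.461% in aerobic cultures. In S. cerevisiae it was 0.531% and 0.0969% in unsupplemented, 0.627% and 0.612% in T, 0.713% and 0.735% in TE, 0.606% and 0.262% in oxygen-limited, and 0.605% and 0.557% in aerobic cultures. The K. marxianus shares of the anaerobic cultures all lay above those of the other cultures, whereas the S. cerevisiae libraries differed most within the oxygen-limited and the unsupplemented groups.

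**Figure D1:**
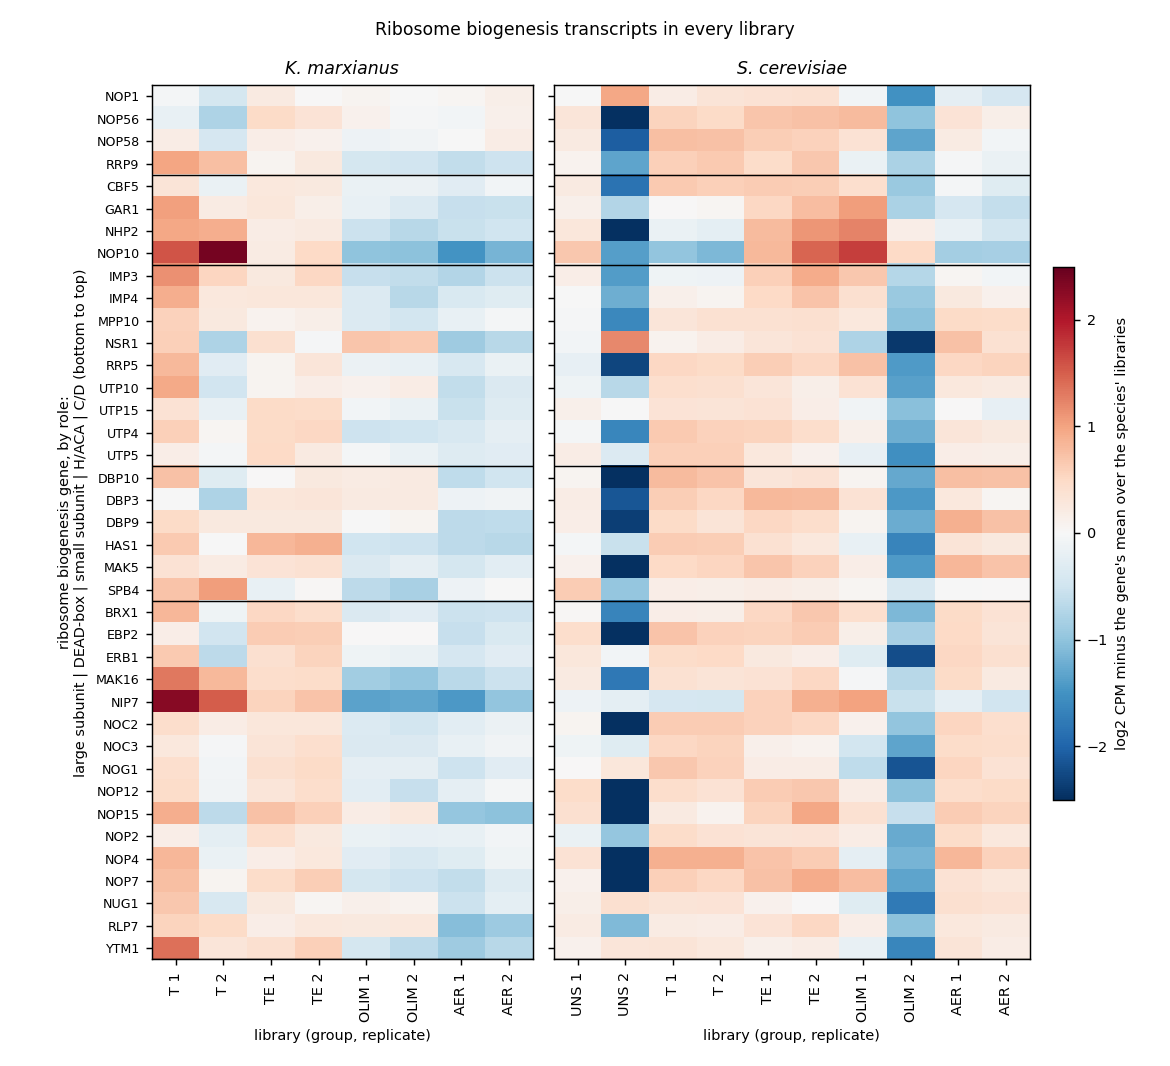
Heat map of log2 CPM minus the gene's mean over the libraries of its species, for 39 genes (rows, by role) in 8 K. marxianus and 10 S. cerevisiae libraries (columns); the colour scale is capped at 2.5 on either side. Most K. marxianus genes are higher in the TE columns than in the aerobic columns, and the second oxygen-limited and second unsupplemented S. cerevisiae libraries are low for most genes.

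Libraries of the same group differed in one direction across most of the list in several groups, by widely differing amounts. The second oxygen-limited S. cerevisiae library was below the first in 39 of 39 genes, with a median log2 ratio of -1.35 against 0.01 over all genes. The second unsupplemented library was below the first in 34 of 39, with a median of -1.59 against -0.15 over all genes. The exceptions were NOP1, NSR1, NOG1, NUG1 and YTM1. In K. marxianus the second T library was below the first in 37 of 39, with a median of -0.58, the exceptions being NOP10 and SPB4. The aerobic pairs differed by less: the first K. marxianus library was below the second in 37 of 39, with a median of -0.16, and the second S. cerevisiae library was below the first in 35 of 39, with a median of -0.12. In the remaining pairs the medians lay between -0.04 and 0.04. Results that rest on these pairs are given with each library left out.

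The libraries also differed in a short list of stress-induced genes (among them heat shock proteins, catalase T and trehalose synthases). Its summed level was 3114 and 6336 CPM in the oxygen-limited S. cerevisiae libraries and 1909 and 3298 CPM in the unsupplemented ones, over 10 genes. It was 1231 and 1306 CPM in T, 1415 and 1416 CPM in TE and 7189 and 8452 CPM in aerobic cultures. In K. marxianus, over 6 genes, it was 818 and 1059 CPM in T, 2255 and 1937 CPM in TE, 1389.9 and 1446 CPM in oxygen-limited and 508 and 461 CPM in aerobic cultures. The second library was the higher in each S. cerevisiae pair, although the TE libraries were almost equal. The part of these genes in the results was not tested.

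**Figure D2:**
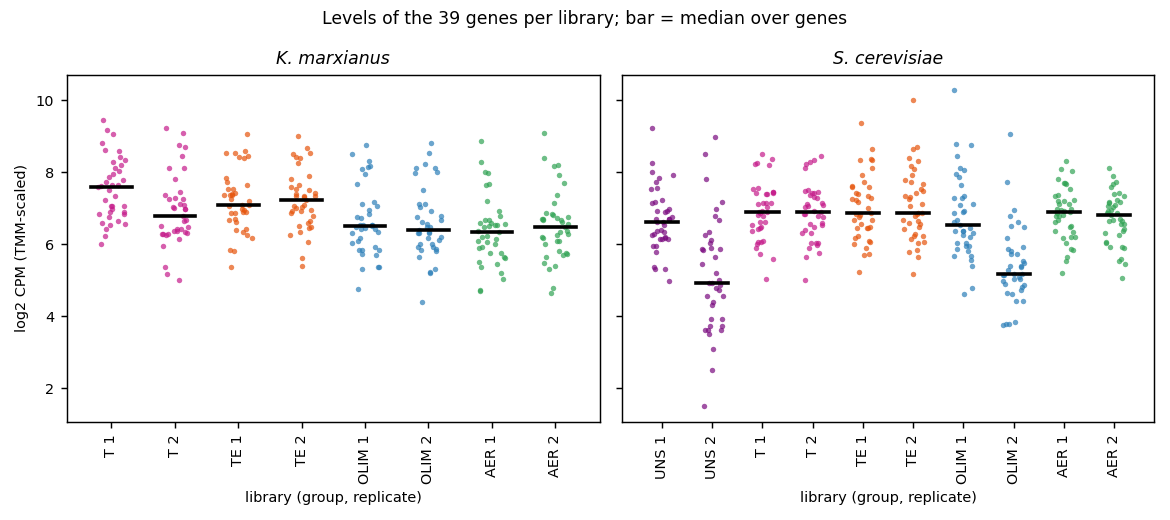
Points are the 39 genes in each library, on a vertical axis of log2 CPM after TMM scaling, with a bar at the median over genes. The medians are 30.3 CPM in the second unsupplemented and 36.1 CPM in the second oxygen-limited S. cerevisiae library, against 92.3 to 119 CPM in the other S. cerevisiae libraries.

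In K. marxianus, anaerobic TE cultures had higher levels of ribosome biogenesis transcripts than aerobic cultures across much of the list. Of the 39 genes, 24 rose and 0 fell, where 27.9% of 5143 genes rose and 28.6% fell. The median log2 fold change of the list was 0.71, against -0.02 over all genes, and 38 of 39 were above 0, as were 2530 of the 5143 genes. By role, 12 of 16 large subunit factors rose, as did 5 of 9 small subunit factors, 3 of 6 helicases, 3 of 4 H/ACA proteins and 1 of 4 C/D proteins.

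NIP7, which acts in large-subunit precursor processing, had 212 and 237 CPM in TE cultures, against 53.8 and 73.5 CPM in aerobic cultures. This was a rise of 1.82 ± 0.26 (SE; adjusted p = 0.00101) on the log2 scale. NOP10 had 133 and 162 CPM in TE cultures, against 41.0 and 51.5 CPM in aerobic cultures, a rise of 1.67 ± 0.27 (SE; adjusted p = 0.00174). Both were several times as high in each TE library as in each aerobic library. NOP15, a factor at the internal transcribed spacer 2 of the large-subunit precursor, had 83.9 and 76.2 CPM in TE cultures, against 25.8 and 24.8 CPM in aerobic cultures, with 1.66 ± 0.43 (SE; adjusted p = 0.0136). HAS1 had 153 and 159 CPM in TE cultures, against 54.1 and 52.7 CPM in aerobic cultures, with 1.54 ± 0.20 (SE; adjusted p = 0.000585). The TE and aerobic libraries of NOP15 and HAS1 did not overlap.

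The smallest called differences were those of NOP2, NOC2 and NOC3. NOP2, an rRNA methyltransferase, had 137 and 121 CPM in TE cultures, against 89.6 and 97.4 CPM in aerobic cultures, with 0.46 ± 0.15 (SE; adjusted p = 0.0351). NOC2, the partner of NOC3 in precursor transport, had 135 and 135 CPM in TE cultures, against 92.9 and 101 CPM in aerobic cultures, with 0.48 ± 0.12 (SE; adjusted p = 0.0125). NOC3 had 104 and 111 CPM in TE cultures, against 72.7 and 77.6 CPM in aerobic cultures, with 0.51 ± 0.13 (SE; adjusted p = 0.0118). Here too the TE libraries lay above the aerobic libraries, by a small margin. The snoRNP methyltransferase NOP1 and its partner NOP58 were not called, and their groups overlapped. NOP1 had 351 and 306 CPM in TE cultures, against 312 and 333 CPM in aerobic cultures, and its difference was 0.03 ± 0.15 (SE; adjusted p = 0.895). NOP58 had 533 and 509.8 CPM in TE cultures, against 468 and 541 CPM in aerobic cultures, with 0.05 ± 0.20 (SE; adjusted p = 0.856).

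Without the first aerobic library 13 genes of the list rose, and without any other single library 18 to 36 rose. None fell in any of these fits. NIP7 and NOP10 were called in all of them, while NOP15, NOP2, NOC2 and NOC3 were called in 5, 3, 7 and 6 of the 8 fits and reached adjusted p of 0.072, 0.179, 0.102 and 0.09 in the least favourable one. The 2 T libraries, which take no part in the comparison but set the spread, moved the count to 36 when either was left out. Shorter genes tended to be higher in this comparison, with a Spearman's rho of -0.25 between gene length and log2 fold change over all 5143 genes, given as a description of 4 libraries. With each library's trend on gene length removed, an alternative added after seeing the data, 31 rose, with a median of 1.00.

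Genes of other pathway lists rose in this comparison too. Of 20 further small subunit processome factors 12 rose and 1 fell, with a median of 0.56. Of 15 export and cytoplasmic maturation factors 6 rose and 0 fell, with a median of 0.48. Of 9 RNA polymerase I subunits and factors 8 rose and 0 fell, with a median of 1.15. Of 5 regulators of ribosome genes 0 rose and 3 fell. They were SCH9, a growth-signalling kinase (-1.49 ± 0.29, SE), SFP1, an activator of ribosome genes (-0.60 ± 0.16), and DOT6 (-0.31 ± 0.11).

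Oxygen-limited K. marxianus cultures, grown on the same medium as TE cultures, differed from aerobic cultures in few genes that passed the test. Of 39 genes 4 rose and 1 fell, where 22.0% of all genes rose and 25.0% fell. The median was 0.10, against -0.08 over all genes. NSR1 had 282 and 275 CPM in oxygen-limited cultures, against 94.4 and 108 CPM in aerobic cultures, a log2 rise of 1.46 ± 0.39 (SE; adjusted p = 0.0191). RLP7, a factor of the internal transcribed spacer 2 that resembles ribosomal protein L7, had 364 and 369.8 CPM in oxygen-limited cultures, against 146 and 164 CPM in aerobic cultures, with 1.24 ± 0.12 (SE; adjusted p = 0.000187). NOP15 had 57.2 and 61.0 CPM in oxygen-limited cultures, against 25.8 and 24.8 CPM in aerobic cultures, with 1.22 ± 0.42 (SE; adjusted p = 0.049). In each of these the oxygen-limited libraries were both far above the aerobic ones. DBP9, a helicase of the large subunit, had 68.4 and 71.9 CPM in oxygen-limited cultures, against 43.6 and 44.4 CPM in aerobic cultures, with 0.67 ± 0.12 (SE; adjusted p = 0.00395). SPB4, another large-subunit helicase, was the 1 gene that fell. It had 41.1 and 37.1 CPM in oxygen-limited cultures, against 59.8 and 64.5 CPM in aerobic cultures, with -0.67 ± 0.15 (SE; adjusted p = 0.0104).

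The count in this comparison depended on the libraries fitted. It was 3 and 2 without the first and second oxygen-limited library, 3 and 2 without the first and second aerobic library, 23 (15 higher and 8 lower) without either T library, and 24 (19 higher and 5 lower) with the 2 groups fitted alone. RLP7 and DBP9 were called whichever of the 8 libraries was left out. SPB4 was called in 6 and NSR1 in 4 of these 8 fits, with adjusted p up to 0.11 and 0.11 without an aerobic or oxygen-limited library. NOP15 was called in 2, those without a T library, and reached 0.17. It was not called with the trend on gene length removed (adjusted p = 0.0523). Of other lists, 5 of 9 RNA polymerase I genes rose and 0 fell, and of 20 further processome factors 2 rose and 5 fell.

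The comparison of anaerobic TE with oxygen-limited K. marxianus cultures shares its libraries with the comparisons above. It is the pair without a difference in medium. Of 39 genes 23 rose and 0 fell, where 25.7% of all genes rose and 26.3% fell. The median was 0.61, against -0.02 over all genes. NIP7 had 212 and 237 CPM in TE cultures, against 57.4 and 58.7 CPM in oxygen-limited cultures, with 1.95 ± 0.26 (SE; adjusted p = 0.00107). NOP10 had 133 and 162 CPM in TE cultures, against 57.3 and 56.4 CPM in oxygen-limited cultures, with 1.37 ± 0.27 (SE; adjusted p = 0.00484). HAS1 had 153 and 159 CPM in TE cultures, against 60.6 and 60.0 CPM in oxygen-limited cultures, with 1.37 ± 0.20 (SE; adjusted p = 0.00139). In these genes both TE libraries were far above both oxygen-limited libraries. All 3 were called whichever library was left out, with adjusted p up to 0.0387.

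The smallest called differences were those of UTP5, MPP10 and NOP2. UTP5, of the processome's t-UTP module, had 116 and 96.4 CPM in TE cultures, against 79.9 and 73.9 CPM in oxygen-limited cultures, with 0.47 ± 0.13 (SE; adjusted p = 0.0232). MPP10, the scaffold of the Imp3-Imp4-Mpp10 complex, had 116 and 120.1 CPM in TE cultures, against 85.9 and 78.7 CPM in oxygen-limited cultures, with 0.52 ± 0.14 (SE; adjusted p = 0.0163). NOP2 had 137 and 121 CPM in TE cultures, against 90.9 and 88.4 CPM in oxygen-limited cultures, with 0.52 ± 0.15 (SE; adjusted p = 0.0243). Their groups were close but did not overlap. NSR1 and RLP7, which were high in oxygen-limited cultures, were not called. NSR1 had 231 and 172 CPM in TE cultures, against 282 and 275 CPM in oxygen-limited cultures, with -0.47 ± 0.38 (SE; adjusted p = 0.34). RLP7 had 343 and 368 CPM in TE cultures, against 364 and 369.8 CPM in oxygen-limited cultures, with -0.05 ± 0.11 (SE; adjusted p = 0.757).

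Fewer genes were called when a library of either group was left out: 14 and 11 without the first and second TE library, and 15 and 9 without the first and second oxygen-limited library. All of these were higher in TE cultures, and the median stayed between 0.59 and 0.63 over the fits that left out 1 library. UTP5, MPP10 and NOP2 were called in 3, 4 and 4 of the 8 fits that left out 1 library, with adjusted p up to 0.138, 0.117 and 0.128. Shorter genes tended to be higher in this comparison, with a rho of -0.35 between gene length and log2 fold change over all genes. With the trend on gene length removed NIP7 was at 1.68, NOP10 at 1.11 and HAS1 at 1.25, all lower than before. UTP5, MPP10 and NOP2 were then at 0.76, 0.81 and 0.82, all higher than before. Of the further processome factors 12 of 20 rose and 1 fell, and of the RNA polymerase I list 5 of 9 rose and 0 fell. Among the regulators SCH9 (-1.49 ± 0.29, SE), SFP1 (-0.98 ± 0.16) and FHL1, a forkhead factor of ribosomal protein genes (-0.84 ± 0.12), fell and 0 of 5 rose.

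T cultures of K. marxianus, without ergosterol, differed from TE cultures in few genes of the list that passed the test, NOP10 and NIP7 foremost. Of 39 genes 6 rose and 2 fell in T against TE cultures, where 18.9% of all genes rose and 18.4% fell. The median was -0.05, against 0.03 over all genes. NOP10 had 343 and 603 CPM in T cultures, against 133 and 162 CPM in TE cultures, with 1.68 ± 0.27 (SE; adjusted p = 0.00436). NIP7 had 699.7 and 415 CPM in T cultures, against 212 and 237 CPM in TE cultures, with 1.31 ± 0.26 (SE; adjusted p = 0.00872). SPB4 had 107 and 135 CPM in T cultures, against 57.1 and 66.4 CPM in TE cultures, with 0.97 ± 0.15 (SE; adjusted p = 0.00424). These genes were higher in each T library than in each TE library, although the T libraries also differed from each other. NHP2 and RRP9, the U3-specific protein of the C/D group, also rose, NHP2 by 0.72 ± 0.11 (SE; adjusted p = 0.00399) and RRP9 by 0.72 ± 0.12 (SE; adjusted p = 0.00554).

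MAK16, a large-subunit factor, had 180.1 and 127 CPM in T cultures, against 98.4 and 99.3 CPM in TE cultures, with 0.63 ± 0.17 (SE; adjusted p = 0.0265), the smallest of the 6 that rose. NOP56, a C/D core protein, fell. It had 231 and 155 CPM in T cultures, against 369.9 and 334 CPM in TE cultures, with -0.87 ± 0.20 (SE; adjusted p = 0.0147). EBP2, a large-subunit factor, also fell. It had 119 and 76.4 CPM in T cultures, against 165 and 161 CPM in TE cultures, with -0.74 ± 0.20 (SE; adjusted p = 0.0267). Both T libraries of NOP56 and EBP2 were below both TE libraries.

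The rest of the list followed which T library was used. Without the first T library 7 genes rose and 24 fell, beside 32.1% and 31.5% of all genes. Without the second, 19 rose and 3 fell, beside 28.1% and 27.9% of all genes. The 8 genes of the full fit kept their direction in both. More of all genes were called in both than in the full fit, so this is no separate support. Without the first and second TE library 3 and 5 genes were called, and NOP56, EBP2 and MAK16 were not among them in either. EBP2 and MAK16 were called in 2 of the 8 fits that left out 1 library, those without a T library. NOP10 and SPB4 were called in all fits that left out 1 library, and NIP7 in all but that without the first TE library (adjusted p = 0.0769). Upper-quartile scaling gave 6 higher and 5 lower. The T and TE libraries share title stems, and were not treated as paired. With the 2 groups fitted alone 0 of 39 genes and 0.0% of 5091 genes were called, with 8 of the 39 at an unadjusted p under 0.05. Of other lists, 5 of 20 further processome factors rose and 0 fell, 0 of 9 RNA polymerase I genes were called, and 3 of 5 regulators fell, DOT6 (-0.62 ± 0.11, SE) the most.

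In oxygen-limited against aerobic cultures of S. cerevisiae 13 of 39 genes fell and 2, the short H/ACA genes NOP10 and NHP2, rose. Over all 5849 genes 30.8% fell and 31.2% rose, so the share of the list that fell was near that of all genes. The median was -0.60, against -0.02 over all genes, and 33 of 39 were below 0. By role, 4 of 6 helicases, 8 of 16 large subunit factors and 1 of 9 small subunit factors fell, and 2 of 4 H/ACA proteins rose.

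NSR1 had 92.3 and 29.7 CPM in oxygen-limited cultures, against 260.4 and 205 CPM in aerobic cultures, with -1.92 ± 0.43 (SE; adjusted p = 0.00541). NOG1, a GTPase of the large subunit, had 121 and 42.0 CPM in oxygen-limited cultures, against 271 and 239 CPM in aerobic cultures, with -1.63 ± 0.39 (SE; adjusted p = 0.00787). ERB1, which acts in a complex with Nop7 and Ytm1, had 50.9 and 13.4 CPM in oxygen-limited cultures, against 89.1 and 82.4 CPM in aerobic cultures, with -1.41 ± 0.46 (SE; adjusted p = 0.0289). The second oxygen-limited library was the lower in each, and the first was also below both aerobic libraries. Of the helicases that fell, DBP9 had 65.8 and 26.6 CPM in oxygen-limited cultures, against 116 and 104 CPM in aerobic cultures, with -1.24 ± 0.34 (SE; adjusted p = 0.0132). DBP10 had 73.3 and 29.0 CPM in oxygen-limited cultures, against 118 and 117 CPM in aerobic cultures, with -1.19 ± 0.34 (SE; adjusted p = 0.0166). MAK16, the smallest of the 13 differences, had 51.2 and 32.5 CPM in oxygen-limited cultures, against 73.1 and 60.8 CPM in aerobic cultures, with -0.66 ± 0.20 (SE; adjusted p = 0.0212). In these 3 genes too the groups did not overlap.

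NOP10 had 1236 and 529 CPM in oxygen-limited cultures, against 206 and 209.7 CPM in aerobic cultures, with 2.10 ± 0.39 (SE; adjusted p = 0.00215). NHP2 had 439 and 210.4 CPM in oxygen-limited cultures, against 163 and 135 CPM in aerobic cultures, with 1.14 ± 0.31 (SE; adjusted p = 0.0127). Both oxygen-limited libraries were above both aerobic libraries in these H/ACA genes, although the oxygen-limited libraries also lay far apart.

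These counts rested on the libraries and on the fit. Without the first oxygen-limited library 35 genes fell and 2 rose, with a median of -1.48, beside 34.9% and 34.6% of all genes. Without the second, 15 fell and 9 rose, with a median of -0.15, beside 34.8% and 33.0% of all genes. The 15 genes of the full fit kept their direction in both. More of all genes were called in both than in the full fit, so this is no separate support. Without the first and second aerobic library 6 and 7 genes were called. NOP10, NSR1 and NOG1 were called in all fits that left out 1 library, while ERB1, NHP2 and MAK16 were called in 4, 7 and 7 of the 8, reaching adjusted p of 0.0914, 0.0932 and 0.104 in the least favourable fit. With the unsupplemented group in the fit, where the common biological coefficient of variation was 32.1%, against 12.8% without it, 2 of 39 were called lower (NOC3 and NOG1) and 0 higher, beside 6.12% and 7.98% of all genes. With the 2 groups fitted alone 4 genes were called.

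In the other lists of S. cerevisiae, most export factors fell. Of 16 export and cytoplasmic maturation factors 12 fell and 0 rose, with a median of -0.93. Of 20 further processome factors 5 fell and 0 rose, a share below that of all genes, with a median of -0.68. Of 10 RNA polymerase I genes 0 fell and 1 rose, with a median of -0.34. Among the 7 regulators 6 fell, among them the repressors TOD6 (-2.58 ± 0.45, SE) and STB3 (-1.29 ± 0.11), and the activators IFH1 (-1.40 ± 0.15) and SFP1 (-0.98 ± 0.10).

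**Figure D3:**
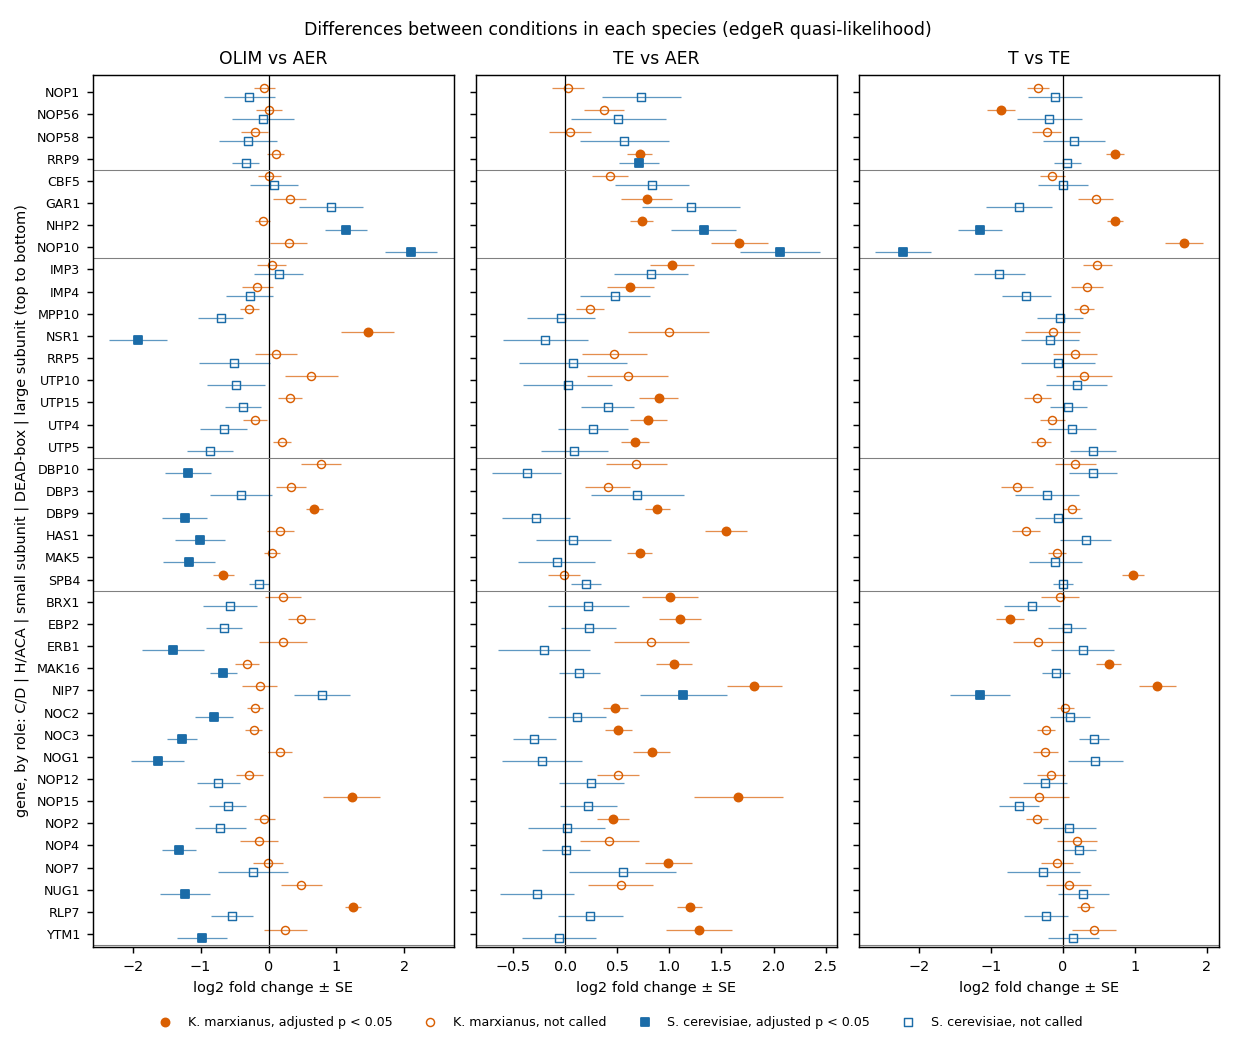
Points are log2 fold changes with SE bars on the horizontal axis, for 39 genes ordered by role, in 3 comparisons; circles are K. marxianus, squares S. cerevisiae, and filled symbols an adjusted p under 0.05. K. marxianus points lie to the right of 0 in TE against aerobic cultures for 38 of 39 genes, and S. cerevisiae points lie to the left of 0 in oxygen-limited against aerobic cultures for 33 of 39.

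Anaerobic TE cultures of S. cerevisiae differed from aerobic cultures in few genes that passed the test, led by the short genes of the H/ACA particle and NIP7. Of 39 genes 4 rose and 0 fell, where 31.2% of all genes rose and 27.1% fell. The median was 0.22, against 0.03 over all genes. NOP10 had 653 and 1027 CPM in TE cultures, against 206 and 209.7 CPM in aerobic cultures, with 2.06 ± 0.39 (SE; adjusted p = 0.00254). NHP2 had 324 and 401 CPM in TE cultures, against 163 and 135 CPM in aerobic cultures, with 1.33 ± 0.31 (SE; adjusted p = 0.007). NIP7 had 194 and 243 CPM in TE cultures, against 112 and 94.1 CPM in aerobic cultures, with 1.13 ± 0.42 (SE; adjusted p = 0.0469). Each TE library was well above each aerobic library in these 3 genes. RRP9 had 101 and 117 CPM in TE cultures, against 72.1 and 65.3 CPM in aerobic cultures, with 0.71 ± 0.19 (SE; adjusted p = 0.014), and its groups did not overlap either. The helicases and most large subunit factors were not called. HAS1, which rose in K. marxianus, had 145 and 134 CPM in TE cultures, against 139 and 133 CPM in aerobic cultures, with 0.08 ± 0.36 (SE; adjusted p = 0.867).

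With the unsupplemented group in the fit 0 of 39 genes were called, with 2 at an unadjusted p under 0.05, beside 6.15% of all genes called higher and 6.95% lower. With the 2 groups fitted alone 20 were called (14 higher and 6 lower). Without either oxygen-limited library, which only sets the spread here, 23 were called (17 higher and 6 lower). Without the second TE library 1 was called, and without the first and second aerobic library 2 and 1. Of the 8 fits that left out 1 library, NOP10 was called in all, NHP2 in 6, RRP9 in 5 and NIP7 in 2, those without an oxygen-limited library (adjusted p up to 0.214 in the others). With the trend on gene length removed NIP7 was at 0.69 (adjusted p = 0.180), while NOP10 (1.35) and NHP2 (0.87) kept adjusted p of 0.0112 and 0.0347. Of other lists, 4 of 10 RNA polymerase I genes and 2 of 20 further processome factors rose, with 0 falling in either. Over all genes 31.2% rose in the reported fit. Of 7 regulators 5 fell and 0 rose, led by TOD6 (-1.38 ± 0.41, SE) and STB3 (-1.16 ± 0.11).

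Against oxygen-limited cultures, S. cerevisiae TE cultures had 12 of 39 genes higher and 0 lower, where 19.1% of all genes were higher and 19.7% lower. The median was 0.83, against 0.02 over all genes. NSR1 had 193 and 202 CPM in TE cultures, against 92.3 and 29.7 CPM in oxygen-limited cultures, with 1.73 ± 0.43 (SE; adjusted p = 0.0156). NOG1 had 211 and 212 CPM in TE cultures, against 121 and 42.0 CPM in oxygen-limited cultures, with 1.41 ± 0.39 (SE; adjusted p = 0.0247). NOP4, an RNA-binding factor of the large subunit, had 52.3 and 49.6 CPM in TE cultures, against 27.3 and 14.4 CPM in oxygen-limited cultures, with 1.33 ± 0.25 (SE; adjusted p = 0.00511). In these genes the TE libraries were close to each other and both above the oxygen-limited libraries.

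UTP15, of the t-UTP module, had 64.5 and 56.7 CPM in TE cultures, against 47.5 and 24.3 CPM in oxygen-limited cultures, with 0.79 ± 0.26 (SE; adjusted p = 0.0454). MAK16 had 67.5 and 74.9 CPM in TE cultures, against 51.2 and 32.5 CPM in oxygen-limited cultures, with 0.80 ± 0.20 (SE; adjusted p = 0.0177). NOP15 had 116 and 153 CPM in TE cultures, against 102 and 52.8 CPM in oxygen-limited cultures, with 0.83 ± 0.28 (SE; adjusted p = 0.0487). These were the smallest called differences. The H/ACA genes were not called: NOP10 had 653 and 1027 CPM in TE cultures, against 1236 and 529 CPM in oxygen-limited cultures, and its groups overlapped.

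All 39 genes rose when the first oxygen-limited library was left out, with a median of 1.61, beside 27.2% of all genes. When the second was left out, 21 rose and 1 fell, with a median of 0.37, beside 21.6% and 22.0%. The 12 genes of the full fit kept their direction in both, although NOP15 lost its call without the second. More of all genes were called in both than in the full fit, so this is no separate support. Of the 8 fits that left out 1 library, NOP15 was called in 1 and UTP15 in 2, those without an oxygen-limited library, with adjusted p up to 0.232 and 0.192 in the others. Without either TE library 2 genes were called, and without any 1 of the T or aerobic libraries 6. With the 2 groups fitted alone 2 were called, and with the unsupplemented group in the fit 0, with 6 at an unadjusted p under 0.05, beside 0.835% of all genes called higher and 1.28% lower. NOP4 was called whichever library was left out, while NSR1, NOG1 and MAK16 lost their calls without either TE library, with adjusted p up to 0.0698, 0.101 and 0.0891. Of other lists, 9 of 16 export and maturation factors and 8 of 20 further processome factors rose, with 0 falling in either. Over all genes 19.1% rose in the reported fit. IFH1 (1.61 ± 0.15, SE) was the 1 of 7 regulators called.

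In S. cerevisiae the genes of the list that fell in T against TE cultures, NOP10, NIP7 and NHP2, were among those that rose in K. marxianus. Of 39 genes 3 fell and 0 rose in this comparison, where 26.8% of all genes fell and 23.4% rose. The median was -0.04, against 0.00 over all genes. NOP10 had 187 and 171 CPM in T cultures, against 653 and 1027 CPM in TE cultures, with -2.23 ± 0.39 (SE; adjusted p = 0.00259). NIP7 had 98.3 and 96.8 CPM in T cultures, against 194 and 243 CPM in TE cultures, with -1.16 ± 0.42 (SE; adjusted p = 0.0492). NHP2 had 167 and 158 CPM in T cultures, against 324 and 401 CPM in TE cultures, with -1.15 ± 0.31 (SE; adjusted p = 0.0158). The T libraries were close to each other and both below the TE libraries. NSR1, which was not called, had 168 and 179.7 CPM in T cultures, against 193 and 202 CPM in TE cultures.

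These 3 genes are among the shortest of the list, and fold changes ran with gene length across all genes of this comparison. NOP10 is 177 bp, NHP2 522 bp and NIP7 546 bp long in S. cerevisiae. Over all 5849 genes Spearman's rho between gene length and log2 fold change was 0.55, as a description of 4 libraries. The median log2 fold change was -0.75 in genes up to the lower quartile of length (717 bp) and 0.31 in genes above the upper quartile (1857 bp). With the trend on length removed from each library, NOP10 fell by 1.28 on the log2 scale (adjusted p = 0.0216). NHP2 was then at -0.61 (adjusted p = 0.135) and NIP7 at -0.63 (adjusted p = 0.255). The same trend had the opposite sign in oxygen-limited against aerobic cultures, with a rho of -0.46 and medians of 0.69 in the shortest and -0.40 in the longest of these genes. There, with the trend removed, NOP10 was at 1.15 (adjusted p = 0.0210), NHP2 at 0.56 (adjusted p = 0.133), and 8 of 39 genes were called (1 higher and 7 lower).

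**Figure D4:**
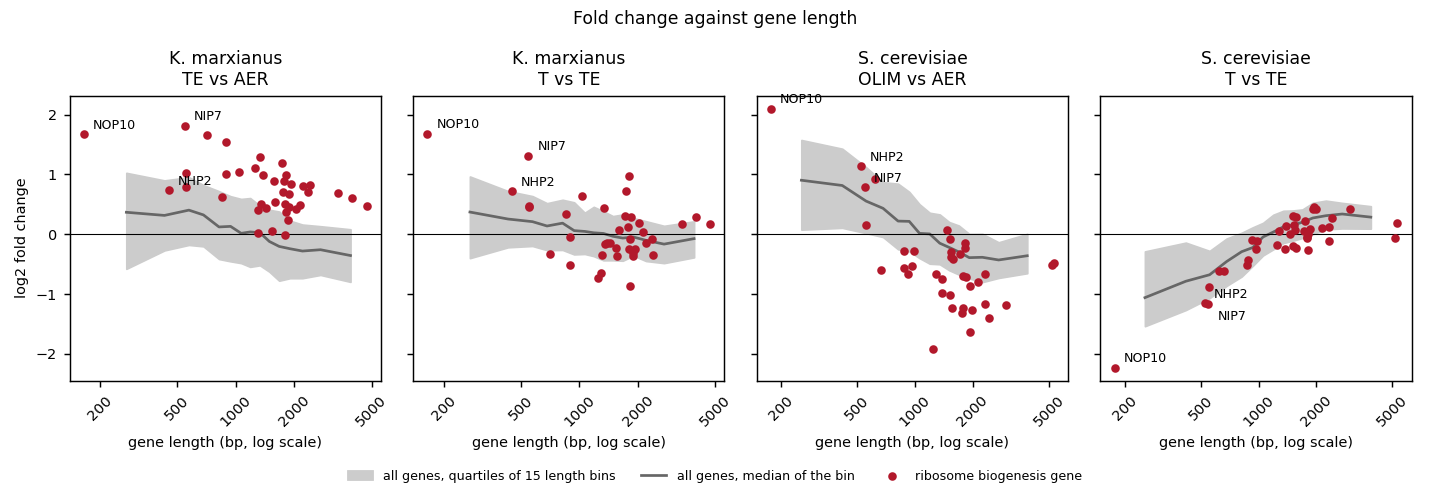
Log2 fold change against gene length in bp (log scale) for 39 genes (red points), over the median (line) and quartiles (grey band) of all genes in 15 length bins, in 4 comparisons. Short genes are low in T against TE cultures of S. cerevisiae (rho of 0.55 over all genes) and high in the K. marxianus comparison (rho of -0.19), and NOP10 lies outside the quartiles in each panel.

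With the unsupplemented group in the fit 0 of 39 genes were called in T against TE cultures, with 2 at an unadjusted p under 0.05, beside 3.32% of all genes called lower and 1.72% higher. With the 2 groups fitted alone 18 were called (8 higher and 10 lower). Without the first and second oxygen-limited library, which take no part here, 20 and 19 were called. Without either T library, or without the second TE library, 1 was called, which was NOP10. NHP2 and NIP7 were called in 5 and 2 of the 8 fits that left out 1 library, and reached adjusted p of 0.105 and 0.217 in the least favourable fit. Among the regulators 5 of 7 rose and 0 fell, including STB3 (0.97 ± 0.11, SE), SFP1 (0.89 ± 0.10), IFH1 (0.75 ± 0.14) and DOT6 (0.54 ± 0.11). Of the RNA polymerase I list 3 of 10 fell, and of the further processome factors 2 of 20, beside 26.8% of all genes in the reported fit.

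Unsupplemented cultures had no called gene of the list against T or TE cultures, and their libraries lay far apart. They differ from T cultures in Tween 80 and from TE cultures in both supplements. Unsupplemented against T cultures had 0 of 39 genes called, where 8.37% of 5868 genes were higher and 2.95% lower. The median was -0.72, against 0.11 over all genes. Unsupplemented against TE cultures had 0 of 39 called, where 6.1% were higher and 2.57% lower, with a median of -0.97 against -0.03. At an unadjusted p under 0.05, 2 genes of the list passed in the first and 0 in the second. DESeq2 called 1 gene in the first and 0 in the second. Of the export and further processome lists 0 genes were called in either comparison.

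NOP10 had 594 and 143 CPM in unsupplemented cultures, against 187 and 171 CPM in T cultures, with 1.05 ± 0.66 (SE; adjusted p = 0.265) on the log2 scale. NSR1 had 151 and 360.2 CPM in unsupplemented cultures, against 168 and 179.7 CPM in T cultures, with 0.55 ± 0.56 (SE; adjusted p = 0.486). NOP1 had 258 and 505 CPM in unsupplemented cultures, against 295 and 323 CPM in T cultures, with 0.30 ± 0.48 (SE; adjusted p = 0.66). In each of these the unsupplemented libraries lay apart from each other, on both sides of at least 1 T library. DBP10 had 73.5 and 12.3 CPM in unsupplemented cultures, against 120.3 and 114 CPM in T cultures, with -1.37 ± 0.69 (SE; adjusted p = 0.186). RRP5, which acts in both subunits, had 83.4 and 19.9 CPM in unsupplemented cultures, against 138 and 135 CPM in T cultures, with -1.34 ± 0.75 (SE; adjusted p = 0.221). NOC2 had 80.0 and 13.2 CPM in unsupplemented cultures, against 119 and 119 CPM in T cultures, with -1.27 ± 0.67 (SE; adjusted p = 0.199). Both unsupplemented libraries were below both T libraries for these 3 genes, the second by far the more.

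Against TE cultures the highest differences were those of NSR1, NUG1 and NOP1. NSR1 was at 0.36 ± 0.56 (SE; adjusted p = 0.641) and NOP1 at 0.18 ± 0.48 (SE; adjusted p = 0.793). NUG1, a GTPase of the large subunit, had 104 and 126 CPM in unsupplemented cultures, against 102 and 95.7 CPM in TE cultures, with 0.21 ± 0.42 (SE; adjusted p = 0.715). The lowest were those of NOP7, the partner of Erb1 and Ytm1, of NHP2 and of RRP5. NOP7 had 126 and 15.1 CPM in unsupplemented cultures, against 193 and 220.2 CPM in TE cultures, with -1.49 ± 0.89 (SE; adjusted p = 0.265). NHP2 had 227 and 32.1 CPM in unsupplemented cultures, against 324 and 401 CPM in TE cultures, with -1.45 ± 0.75 (SE; adjusted p = 0.211). RRP5 had 83.4 and 19.9 CPM in unsupplemented cultures, against 149 and 138 CPM in TE cultures, with -1.41 ± 0.75 (SE; adjusted p = 0.222). None of these was called. Without the first unsupplemented library 22 genes fell against T and 25 against TE cultures, beside 37.5% and 39.3% of all genes, with medians of -1.82 and -2.13. Without the second, 1 rose and 0 fell against T and 0 were called against TE cultures, beside 21.0% and 14.6% of all genes higher, with medians of -0.33 and -0.45.

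**Figure D5:**
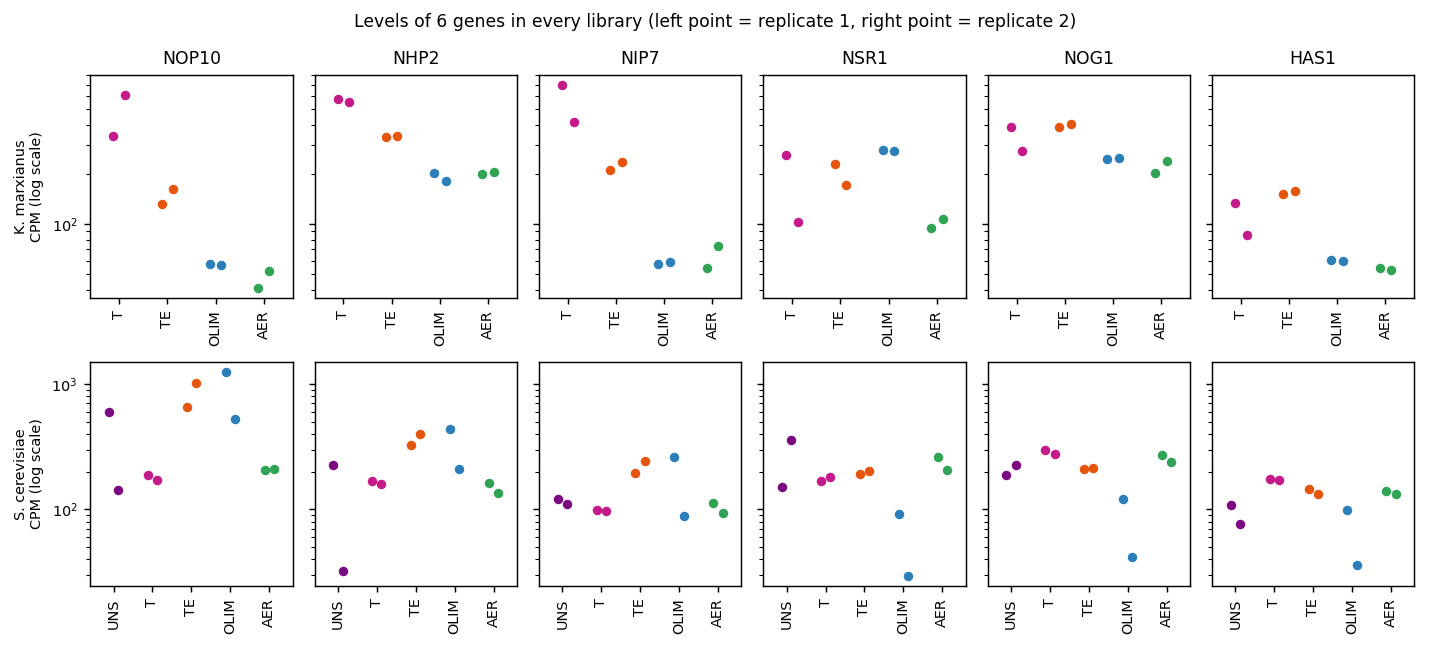
CPM on a log scale in every library for NOP10, NHP2, NIP7, NSR1, NOG1 and HAS1, with K. marxianus above and S. cerevisiae below; the left point of a group is replicate 1 and the right point replicate 2. NOP10, NHP2 and NIP7 are higher in T than in TE cultures of K. marxianus and lower in T than in TE cultures of S. cerevisiae.

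The species were compared over 3885 genes matched 1 to 1, by testing whether the log2 fold change in K. marxianus exceeded or fell short of the one in S. cerevisiae. A positive difference means a higher value in K. marxianus. For oxygen-limited against aerobic cultures 14 of 39 genes were higher and 2 lower, where 28.4% of all matched genes were higher and 28.0% lower. The median difference was 0.65, against 0.05 over all matched genes. NSR1 differed by 3.38 ± 0.64 (SE; adjusted p = 0.000677), with the K. marxianus oxygen-limited libraries above and the S. cerevisiae ones below their aerobic libraries. DBP10 differed by 1.96 ± 0.49 (SE; adjusted p = 0.00475) and DBP9 by 1.91 ± 0.40 (SE; adjusted p = 0.00135). DBP10 had 88.3 and 88.9 CPM in oxygen-limited cultures, against 49.3 and 54.2 CPM in aerobic cultures of K. marxianus. The 2 genes with a lower difference were NOP10, at -1.80 ± 0.51 (SE; adjusted p = 0.00933), and NHP2, at -1.22 ± 0.36 (SE; adjusted p = 0.0115). Both are among the 5 shortest genes of the list. Over all genes rho between length and log2 fold change was 0.10 in K. marxianus and -0.46 in S. cerevisiae. The part of length in the species difference was not tested. Without the first oxygen-limited S. cerevisiae library 35 genes were called, and without the first aerobic K. marxianus library 9. NSR1, DBP10 and DBP9 were called in each of the 16 fits that left out 1 library.

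For TE against aerobic cultures 5 of 39 genes were higher in the difference and 0 lower, where 22.5% of all matched genes were higher and 22.1% lower. The median difference was 0.49. HAS1 differed by 1.47 ± 0.46 (SE; adjusted p = 0.0199), NOP15 by 1.44 ± 0.54 (SE; adjusted p = 0.0459) and DBP9 by 1.17 ± 0.39 (SE; adjusted p = 0.028). The others were MAK16, at 0.91 ± 0.28 (SE; adjusted p = 0.0195), and NOC3, at 0.81 ± 0.27 (SE; adjusted p = 0.0255). The share of the list called was thus below that of all matched genes. The count was 0 without the first aerobic K. marxianus or the first TE S. cerevisiae library (5 and 4 genes at an unadjusted p under 0.05), 19 without either oxygen-limited S. cerevisiae library and 9 without either T library of K. marxianus. It was 1 to 3 without the other TE and aerobic libraries of either species. HAS1, NOP15 and DBP9 were called in 12, 4 and 9 of the 16 fits that left out 1 library, and reached adjusted p of 0.0642, 0.143 and 0.0781 in the least favourable fit.

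For TE against oxygen-limited cultures 2 of 39 genes were higher and 1 lower in the difference, where 23.1% of all matched genes were higher and 23.3% lower. NIP7 differed by 1.61 ± 0.54 (SE; adjusted p = 0.0284) and NOP10 by 1.41 ± 0.50 (SE; adjusted p = 0.036), while NSR1 differed by -2.20 ± 0.63 (SE; adjusted p = 0.0123). NIP7 and NOP10 are among the 5 shortest genes of the list. Fold changes of all genes ran with length in opposite directions here, with a rho of -0.35 in K. marxianus and 0.21 in S. cerevisiae. The part of length in these differences was not tested. The direction depended on which oxygen-limited S. cerevisiae library was used: 30 genes were lower and 0 higher without the first, and 10 higher and 1 lower without the second. The count was 0 without the second TE library of K. marxianus (3 genes at an unadjusted p under 0.05), and 1 without either of its oxygen-limited libraries or without the first TE library of S. cerevisiae. NIP7, NOP10 and NSR1 were called in 11, 11 and 15 of the 16 fits that left out 1 library, and reached adjusted p of 0.151, 0.16 and 0.057 in the least favourable fit.

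For T against TE cultures 7 of 39 genes were higher in the difference and 0 lower, where 25.7% of all matched genes were higher and 24.8% lower. NOP10 differed by 3.91 ± 0.51 (SE; adjusted p = 8.04e-05), NIP7 by 2.47 ± 0.54 (SE; adjusted p = 0.00245) and NHP2 by 1.87 ± 0.36 (SE; adjusted p = 0.00101). The first T libraries of the 2 species thus stood at 343 and 187 CPM of NOP10, on either side of their own TE libraries. IMP3, of the Mpp10 complex, differed by 1.37 ± 0.45 (SE; adjusted p = 0.0234), SPB4 by 0.97 ± 0.22 (SE; adjusted p = 0.00266), MAK16 by 0.73 ± 0.28 (SE; adjusted p = 0.046) and RRP9 by 0.66 ± 0.24 (SE; adjusted p = 0.0381). Fold changes of all genes ran with length in opposite directions in the 2 species here, with a rho of -0.19 in K. marxianus and 0.55 in S. cerevisiae. Its part in these differences was not tested in the fit over both species. The count was 17 and 16 without the first and second oxygen-limited S. cerevisiae library. It was 4 without the first TE library of K. marxianus, the second TE library of S. cerevisiae or either T library of S. cerevisiae, and 6 (4 higher and 2 lower) without the first T library of K. marxianus. NOP10, NIP7 and NHP2 were called in each of the 16 fits that left out 1 library.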

How the data were processed

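Deposited values were integer counts of read pairs per gene, 1 table per species. Per the submitters' processing notes, Bowtie 1.2.1.1, SAMtools 1.3.1, featureCounts 1.6.0 and edgeR 3.28.1 were used. Per the file headers, featureCounts ignored strand, left out multi-mapping reads and reads over more than 1 gene, and required both mates to map to 1 chromosome. Gene-level counts therefore miss reads shared with close copies. Per the labels' protocols the libraries were stranded TruSeq mRNA libraries after poly(A) enrichment. The authors' deposited comparison tables were not used for values, and their reference locus column served for matching genes.

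Counts were analysed in R 4.3.3 with edgeR 4.0.16 (quasi-likelihood test, TMM, default filter on low counts) on all genes, with DESeq2 1.42.0 as an alternative. K. marxianus was fitted over 8 libraries (5143 genes), S. cerevisiae over the 8 libraries of the conditions it shares with K. marxianus (5849 genes), and over 10 libraries (5868 genes) for the unsupplemented group. The species difference was fitted over 16 libraries and 3885 genes, with TMM factors computed within species. Trends on gene length were removed as offsets (loess, span 0.5) in an added alternative. All tests were two-sided.

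The members, the other lists and the choice of fits were made with earlier results of these data known. Values of single libraries are given for the gene of each role with the highest S. cerevisiae level per kb, for the 3 highest and 3 lowest called members of a comparison (of all members where none was called), and for the 3 largest called species differences. Genes of other lists are examples by size of fold change. A few other members are named because they contrast with these, after their values were seen. Replicate numbers follow accession order and only name libraries. The p-values rest on the spread between replicate libraries, pooled over all groups of a fit and moderated across genes. The 2 libraries of a group are described in the design as biological replicates. T and TE cultures of K. marxianus, and unsupplemented and TE cultures of S. cerevisiae, share title stems. With 2 pairs each, the libraries were not treated as paired. Intervals from fits rest on 4, 5 or 8 residual degrees of freedom. The fitting steps were tested on simulated counts, with the same spread for every gene and without unsupplemented libraries. No simulated library stood apart from its replicate, so the simulation does not bear on results that rest on such libraries.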

Additional observations from a re-analysis of the deposited data

Results flagged for a closer look

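The values below are differences between the yeasts (log2 fold change in K. marxianus minus that in S. cerevisiae), singled out because edgeR's test of the difference itself passed an adjusted p under 0.05 over all matched genes. They are the 3 largest of each comparison. For oxygen-limited against aerobic cultures they were NSR1 (3.38), DBP10 (1.96) and DBP9 (1.91). For TE against aerobic cultures they were HAS1 (1.47), NOP15 (1.44) and DBP9 (1.17). For TE against oxygen-limited cultures they were NSR1 (-2.20), NIP7 (1.61) and NOP10 (1.41), and for T against TE cultures NOP10 (3.91), NIP7 (2.47) and NHP2 (1.87). Title code and species cannot be told apart in any of them. The part of gene length in these differences was not tested in the fit over both species.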

How the results depend on the processing

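Scaling by relative log expression or upper quartiles and dropping the filter on low counts moved no total of called genes by more than 1.5 times, and the median of the list kept its side of 0 under them. By direction, upper-quartile scaling gave 5 lower genes where the reported fit gave 2, for K. marxianus T against TE. Upper-quartile scaling shifted the median log2 fold change of all genes by -0.22 and -0.20 in unsupplemented against T and TE cultures, and by less than 0.1 elsewhere. DESeq2 called 7 genes in TE against aerobic, 21 in TE against oxygen-limited and 1 in unsupplemented against T cultures of S. cerevisiae. Counts depended on which groups shared the estimate of spread. With only the compared groups fitted, the K. marxianus counts were 24 in oxygen-limited against aerobic and 0 in T against TE cultures. In S. cerevisiae the same restriction gave 4 in oxygen-limited against aerobic, 20 in TE against aerobic, 2 in TE against oxygen-limited and 18 in T against TE cultures. With all 5 groups these were 2, 0, 0 and 0. With the length trend removed, 8 genes were called in oxygen-limited against aerobic and 1 in T against TE cultures of S. cerevisiae (median -0.16), and the K. marxianus medians were 1.00 in TE against aerobic and 0.81 in TE against oxygen-limited cultures. The cause of these shifts was not tested.

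Leaving out 1 library at a time gave 2 to 23 called genes in oxygen-limited against aerobic, 13 to 36 in TE against aerobic, 9 to 32 in TE against oxygen-limited and 3 to 31 in T against TE cultures, for K. marxianus. For S. cerevisiae the ranges were 6 to 37, 1 to 23, 2 to 39 and 1 to 20 in the same order, 0 to 22 in unsupplemented against T, and 0 to 25 in unsupplemented against TE cultures, where the median ran between -2.13 and -0.45. For the species difference they were 9 to 35, 0 to 19, 0 to 30 and 4 to 17. Where a group was left with 1 library, that library was assumed to vary like the others. Shares of all genes are not given beside these ranges and also change with the spread, so the ranges are no result about the list.

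The pairing of libraries by title stem was not established with 2 pairs. With the stem as a block, the count was 3 for K. marxianus T against TE and 0 for S. cerevisiae unsupplemented against TE cultures (5 at an unadjusted p under 0.05, median -1.20). Other comparisons share no title stems.

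Of the named genes, uncalled ones changed sign, all of them in unsupplemented cultures. Without the first and second unsupplemented library the log2 fold changes against T cultures were -0.33 and 1.64 for NOP10, 1.04 and -0.30 for NSR1, and 0.70 and -0.36 for NOP1. Against TE cultures they were 0.86 and -0.47 for NSR1, 0.34 and -8.70e-06 for NUG1, and 0.59 and -0.45 for NOP1. With upper-quartile scaling NOP1 was at -0.00897 against T and -0.11 against TE cultures, and NUG1 at -0.031 against TE cultures. Counts in the second unsupplemented library ran from 3 to 534 per gene, so that the precision there is lowest for the genes with the fewest counts.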
